A study of Mus musculus with 2 samples.

Results

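The 8 genes described here belong to the NF-κB feedback response to TNF and IL-17 and were found by their symbols: Tnf, Tnfaip3, Nfkbia, Nfkbiz, Zc3h12a, Cebpd, Bcl3 and Traf3ip2. Of the 8 genes, 7 were read as rows of both count matrices, which hold 27998 gene rows, and Cebpd was not analysed here. The identifiers of the 7 are ENSMUSG00000024401 (Tnf), ENSMUSG00000019850 (Tnfaip3), ENSMUSG00000021025 (Nfkbia), ENSMUSG00000035356 (Nfkbiz), ENSMUSG00000042677 (Zc3h12a), ENSMUSG00000053175 (Bcl3) and ENSMUSG00000019842 (Traf3ip2). Single-cell RNA was measured in healed dorsal skin of WT C57/BL6 mice after a circular wound 1.8 cm across. According to the labels the WT_LW wounds received PBS and the TLR9agonist_LW wounds received ODN2395, a CpG oligodeoxynucleotide that activates TLR9, on days 0, 3 and 6. Skin was taken 2 days after scab detachment. Cells of several mice were pooled into 1 library per group, so no test between the groups was possible, and mouse, preparation and treatment cannot be told apart. The study also names a control oligonucleotide for wounds of the WT_LW group, so the control is given here only as the labels have it. No library received TNF or IL-17 alone, so whether either cytokine induced these genes in the wounds was not tested.

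TNF binds its receptors and frees NF-κB from the IκB proteins through the IKK kinases, and NF-κB then switches on genes that close the pathway again. Nfkbia encodes IκBα, the inhibitor that holds NF-κB in the cytoplasm, and Tnfaip3 encodes A20, a ubiquitin-editing enzyme that shuts down signalling at the TNF receptor. Nfkbiz (IκBζ) and Bcl3 encode nuclear IκB proteins that act as coregulators at NF-κB target genes, and Zc3h12a encodes Regnase-1, an RNase that degrades cytokine mRNAs. IL-17 signals through the adaptor Act1, the product of Traf3ip2, and with TNF it stabilises and induces many of the same mRNAs in skin. In skin, IL-17 comes mainly from γδT17 cells and other T cells, and keratinocytes, fibroblasts and vascular cells respond to it.

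The promoters of 3 feedback genes are shown because their windows hold a match to the motif that NF-κB binds. That of Tnf, the ligand gene, is shown because its window holds none. The windows run from 250 bases before to 50 bases after the start of the gene (RefSeq, GRCm38.p6) and are written on the gene's strand. Capitals mark the NF-κB consensus, searched by its name on both strands. Of the 8 genes, 5 had a window, and these came to 6 windows.
Nfkbia, chr12:55492598-55492897, minus strand: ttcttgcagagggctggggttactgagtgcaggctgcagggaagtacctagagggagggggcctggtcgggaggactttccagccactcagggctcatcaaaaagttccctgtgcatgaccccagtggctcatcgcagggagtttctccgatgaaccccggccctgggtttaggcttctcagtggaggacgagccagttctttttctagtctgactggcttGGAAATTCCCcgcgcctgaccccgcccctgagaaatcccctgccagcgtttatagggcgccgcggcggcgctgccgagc
Tnfaip3, chr10:19015361-19015660, minus strand: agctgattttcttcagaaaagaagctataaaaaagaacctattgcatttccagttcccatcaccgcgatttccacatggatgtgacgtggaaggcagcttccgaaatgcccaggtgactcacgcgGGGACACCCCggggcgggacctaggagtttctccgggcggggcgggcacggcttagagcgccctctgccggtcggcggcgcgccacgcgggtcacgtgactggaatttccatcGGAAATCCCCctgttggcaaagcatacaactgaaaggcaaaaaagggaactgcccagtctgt
Bcl3, chr7:19822706-19823005, minus strand: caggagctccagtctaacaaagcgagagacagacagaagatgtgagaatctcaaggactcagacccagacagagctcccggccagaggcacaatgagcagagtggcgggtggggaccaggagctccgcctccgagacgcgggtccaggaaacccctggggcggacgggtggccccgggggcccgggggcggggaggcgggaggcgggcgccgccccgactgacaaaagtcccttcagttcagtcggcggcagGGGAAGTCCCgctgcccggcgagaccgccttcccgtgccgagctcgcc
Tnf, chr17:35201958-35202257, minus strand: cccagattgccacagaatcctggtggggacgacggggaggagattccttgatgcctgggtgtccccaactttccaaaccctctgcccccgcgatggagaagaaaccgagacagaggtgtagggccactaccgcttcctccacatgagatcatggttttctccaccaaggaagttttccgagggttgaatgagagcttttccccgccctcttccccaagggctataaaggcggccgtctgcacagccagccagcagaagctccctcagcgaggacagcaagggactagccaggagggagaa

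The window of Nfkbia held 1 match to the NF-κB consensus, beginning 29 bases before the start of the gene. That of Tnfaip3 held 2 matches, 125 and 12 bases before the start, and an AP-1 motif (TGANTCA) beginning 136 bases before it. In Bcl3 the only match began just after the start. Of 32851 windows of the same length, 8.46% held at least 1 NF-κB match and 7.81% the AP-1 motif. The windows of Tnf and Zc3h12a held neither set of letters, nor did a second window of Tnfaip3. A match describes letters and not a bound site, and a window without one says only that these letters are not in these 300 bases. TATAAA began 29 bases before the start in Tnf and 225 bases before it in Tnfaip3, and Nfkbia held it on the opposite strand after the start. It was found on either strand in 13.6% of all windows.

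The deposited cells held 99374045 UMIs in WT_LW and 132339022 in TLR9agonist_LW. After filtering and removal of predicted doublets, 10395 and 11811 cells were used, with medians of 5519 and 6080 UMIs. Cells were assigned by marker gates, and 9 types had at least 50 cells in both libraries: keratinocyte-like (610 in WT_LW and 1294 in TLR9agonist_LW), fibroblast-like (836 and 2209), pericyte- or vascular smooth muscle-like (616 and 477), blood endothelial-like (606 and 365), lymphatic endothelial-like (57 and 52), Schwann-like (777 and 471), T cell-like (3229 and 3411), macrophage, monocyte or dendritic cell-like (1738 and 1342; phagocytes below) and mast cell-like (183 and 426). They are called by these names without the suffix from here on. They took in 83.2% and 85.1% of the used cells. The libraries stood apart: in a joint clustering without batch correction, 22 of 30 clusters drew over 90% of their cells from 1 library, and 6 of 7 T cell clusters did. They shared 47 barcodes, 33 of them among used cells, and leaving these cells out changed none of the members' calls in the 9 types. RNA of other cell types differed too. The summed keratinocyte markers were at 184 to 485 CPM in the 8 other types of WT_LW and at 558 to 2726 CPM in those of TLR9agonist_LW, and the summed neutrophil markers were higher in all 9 types (30.8 to 1775 CPM against 370 to 8331 CPM). S100a9 made up that rise, with 247 CPM in WT_LW and 2744 CPM in TLR9agonist_LW over the cells outside the neutrophil gate, where Il1r2, Csf3r, Mmp9 and Trem1 of the same list were lower in TLR9agonist_LW and Retnlg, Cxcr2 and Ly6g were higher at levels of at most 1.76 CPM. Keratinocytes, which can make S100a9 themselves, had the highest sum. The sum of the 8 fibroblast markers went from 865 to 2246 CPM in blood endothelium, from 1202 to 2369 CPM in T cells and from 813 to 1585 CPM in phagocytes, with 5 of 5, 8 of 8 and 7 of 8 markers counted higher. It was larger in pericytes as well (4995 and 5276 CPM) and in mast cells, and smaller in keratinocytes, lymphatic endothelium and Schwann cells. The part of RNA from other cells in the results was not tested.

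Levels are given as CPM, the UMIs of a gene per 1000000 UMIs of the cell type in that library, with exact Poisson 95% intervals. Every interval covers counting error only. Cells of a type come from the same library and are not replicates. Differences are log2 ratios of TLR9agonist_LW to WT_LW, given relative to the median gene of the type. That median lay at -0.44 in keratinocytes, -0.36 in pericytes and in blood endothelium, -0.27 in fibroblasts, -0.26 in T cells and phagocytes, -0.17 in Schwann cells, 0.02 in lymphatic endothelium and 0.14 in mast cells. A gene was called higher or lower past 1.5-fold relative to it when it had at least 50 UMIs in the type.

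Tnf was mostly a transcript of phagocytes, mast cells and T cells. Its level in phagocytes was 229 CPM in WT_LW (95% interval 222 to 236) and 185 CPM in TLR9agonist_LW (177 to 193). In mast cells it was 125 and 69.6 CPM and in T cells 65.6 and 88.4 CPM. The phagocytes stood first in both libraries, and mast cells and T cells changed places behind them. The other 6 types lay between 2.14 and 20.9 CPM, and there most neighbours in the order had overlapping intervals. Phagocytes held 61.0% of all Tnf UMIs of WT_LW but 40.7% of those of TLR9agonist_LW, while the share of T cells was 16.9% and 29.3%. A neutrophil-like gate had only 43 and 175 cells and entered no comparison. Its Tnf level was 1786 CPM in WT_LW against 530.1 CPM in TLR9agonist_LW, above every type named so far.

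The mRNA of the cytoplasmic inhibitor Nfkbia was abundant in every type. In WT_LW its level ran only from 561 CPM in keratinocytes to 1322 CPM in lymphatic endothelium, a 2.36-fold range. In TLR9agonist_LW it ran from 822 CPM in keratinocytes to 4319.7 CPM in blood endothelium, a 5.26-fold range. Blood endothelium was the fourth in the order of WT_LW and the first in that of TLR9agonist_LW, followed by pericytes, T cells, lymphatic endothelium, phagocytes, fibroblasts, Schwann cells, mast cells and keratinocytes. In that order the intervals of lymphatic endothelium and phagocytes overlapped and no other neighbours did, whereas 5 pairs of neighbours overlapped in WT_LW.

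Tnfaip3, the A20 gene, was the most uneven of the inhibitors. Mast cells (945 CPM) and T cells (929 CPM) led in WT_LW with overlapping intervals, and keratinocytes were lowest with 68.9 CPM. In TLR9agonist_LW T cells led with 1119.8 CPM, ahead of pericytes with 615 CPM and fibroblasts with 414 CPM. Mast cells were the fourth there, with 402 CPM, and keratinocytes were again lowest. T cells held 49.0% of all Tnfaip3 UMIs in WT_LW and 39.2% in TLR9agonist_LW, and fibroblasts 7.47% and 25.6%.

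Among the nuclear IκB genes, Nfkbiz was highest in mast cells of both libraries, at 978 and 572 CPM. In WT_LW T cells, phagocytes, pericytes and blood endothelium followed within 292 to 323 CPM, their neighbouring intervals overlapping. In TLR9agonist_LW blood endothelium reached 524 CPM, where its interval overlapped that of mast cells. Bcl3 was flat by comparison, between 21.9 and 64.8 CPM over the types of WT_LW and between 26.4 and 68.7 CPM over those of TLR9agonist_LW.

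The RNase gene Zc3h12a was highest in phagocytes and T cells, with 131 and 126 CPM in WT_LW against 103 and 131 CPM in TLR9agonist_LW. It was lowest in fibroblasts, at 12.6 and 15.6 CPM. The adaptor gene Traf3ip2 was scarce, with 728 UMIs in all used cells of WT_LW and 1124 in those of TLR9agonist_LW. Keratinocytes had its highest level in both libraries, 18.9 and 18.6 CPM, and phagocytes had 2.10 and 2.00 CPM. No Traf3ip2 UMI was counted in the mast cells of WT_LW, which allows a level of up to 4.70 CPM by the limit of 3 counts.

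**Figure D1:**
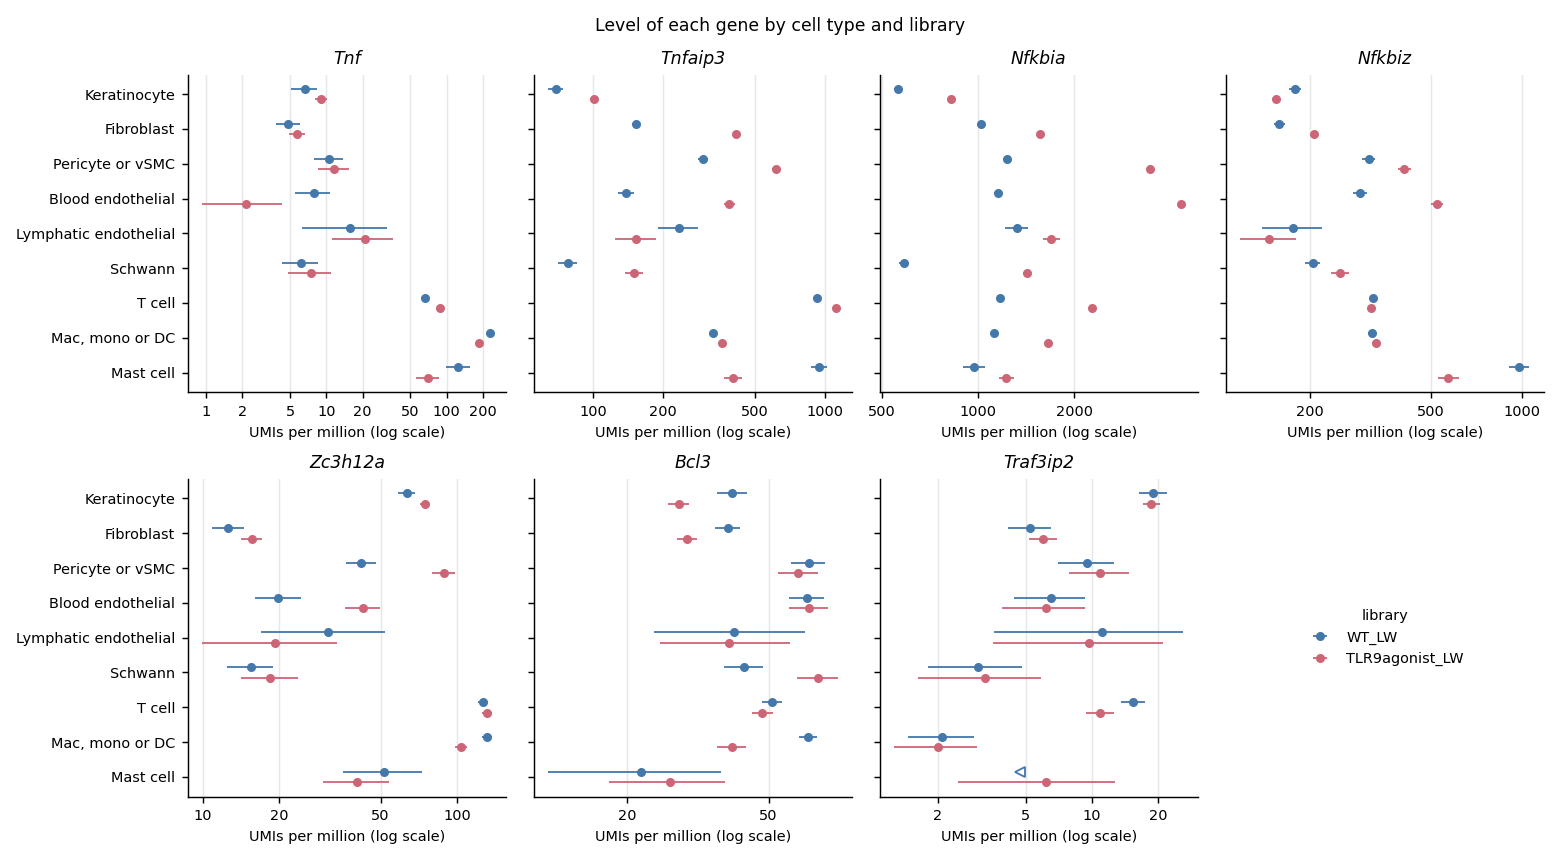
Level of each gene in CPM (log axis) in 9 cell types of WT_LW (blue) and TLR9agonist_LW (red), with exact Poisson 95% intervals as bars and an open triangle for the limit that a count of 0 allows. Nfkbia of blood endothelium stands farthest to the right in TLR9agonist_LW, and Tnf sits at high levels only in T cells, phagocytes and mast cells.

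Blood endothelium and pericytes had the largest differences of Nfkbia and of Zc3h12a among the types. In blood endothelium Nfkbia was at 1150.3 CPM in WT_LW (1119.9 to 1181) and at 4319.7 CPM in TLR9agonist_LW (4253 to 4387). This was 3.76-fold in level and a log2 ratio of 2.27 relative to the median gene (interval 2.22 to 2.31). Tnfaip3 was at 139 and 387 CPM, a relative log2 ratio of 1.84 (1.70 to 1.97). Both genes were higher in TLR9agonist_LW, with intervals of the level that did not overlap. Nfkbiz was at 292 and 524 CPM (1.20, 1.10 to 1.30), and Zc3h12a at 19.8 and 42.6 CPM (1.46, 1.08 to 1.84). So 4 of the 6 members counted were past 1.5-fold, all higher, where 13.6% of the 9374 genes counted in this type were higher and 18.8% lower. Bcl3 (0.37) and Traf3ip2 (0.27) were within the fold, and Tnf, with 37 and 8 UMIs, had too few to be counted.

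In pericytes the same 4 members were called. Nfkbia was at 1230.1 CPM in WT_LW against 3445 CPM in TLR9agonist_LW, a relative log2 ratio of 1.84 (1.80 to 1.89). Zc3h12a was at 41.9 and 88.3 CPM (1.43, 1.18 to 1.69) and Tnfaip3 at 297 and 615 CPM (1.41, 1.31 to 1.502). Nfkbiz, at 313 and 409.6 CPM, was the smallest of the 4 differences (0.75) and was within 1.5-fold without the centring on the median gene (0.39). Here 4 of 7 members were higher, against 13.4% of the 9647 genes counted (14.0% were lower). Genes of cell dissociation stress and immediate early genes moved in the same types: 14 of 23 were higher in blood endothelium and 11 of 23 in pericytes, none were lower, and their sum went from 14527 to 32211 CPM and from 22072 to 34191 CPM. Among them Hspa1b, an inducible heat shock gene, went from 630.2 to 4769.9 CPM in blood endothelium. Fosb (-0.85) and Klf2 (-0.75) were lower there without the centring. The part of this response in the members' levels was not tested.

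In fibroblasts the A20 gene stood out. Tnfaip3 was at 152 CPM in WT_LW (146 to 159) and 414 CPM in TLR9agonist_LW (406 to 421), a relative log2 ratio of 1.71 (1.65 to 1.78). Nfkbia, at 1023 and 1563 CPM, had a smaller ratio of 0.88 (0.86 to 0.91). In blood endothelium and pericytes Nfkbia was ahead of Tnfaip3. Nfkbiz was at 159 and 206 CPM (0.65), which was within 1.5-fold without the centring (0.38). The count was 3 of 7 members higher, against 14.2% of 12400 genes (11.0% were lower), and 5 of 7 when clusters took the place of the marker gates.

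Schwann cells had 3 of 6 members higher, against 8.78% of 10195 genes (7.74% were lower). Nfkbia was at 586 CPM in WT_LW against 1417 CPM in TLR9agonist_LW (1.45, 1.38 to 1.51), and Tnfaip3 at 77.5 and 150.5 CPM (1.13, 0.95 to 1.32). The third was Bcl3, at 42.6 and 68.7 CPM (0.86, 0.60 to 1.13). Bcl3 was past the fold in no other of the 7 types in which it was counted. The dissociation list moved in fibroblasts and Schwann cells as well, with 13 and 14 of its 23 genes higher and none lower. Without the centring Egr1, Dusp1, Hspa8 and Dnaja1 of fibroblasts were within the fold (0.33 to 0.37). In Schwann cells Jun, Egr1, Dnaja1, Hsp90aa1 and Btg2 were then within it (0.46 to 0.57).

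In keratinocytes, the epithelium that covers the wound, 4 of 7 members were higher, against 12.4% of 11190 genes (18.8% were lower). Nfkbia was at 561 and 822 CPM (0.99, 0.95 to 1.03), Tnfaip3 at 68.9 and 100.3 CPM (0.98) and Zc3h12a at 63.3 and 74.7 CPM (0.68). All 4 calls rested on the centring, since the median gene of this type was at -0.44, and none was past 1.5-fold without it. The fourth, Tnf, was at only 6.58 and 9.02 CPM (0.90). Its call was also lost with doublets kept (0.38) and with equal weight per cell (0.15). By sub-gate, Nfkbia was past the fold in basal (709 and 1118 CPM, 0.89), differentiated (481 and 632 CPM, 0.75) and hair follicle keratinocytes (489 and 975 CPM, 1.19). The members past the fold were 3 of 7 in basal cells (background 10.6% higher and 18.3% lower of all genes), 2 of 7 in differentiated cells (13.7% and 19.5%) and 4 of 6 in follicle cells (11.1% and 26.4%), all higher. Both calls of differentiated cells, and those of Bcl3 and Traf3ip2 in follicle cells, rested on the centring. Beside these values 11 of the 23 dissociation genes were higher and 2 lower. Without centring Jund, Ier3, Hspa8, Dnaja1, Klf4 and Klf6 were within the fold (0.30 to 0.46). Egr1, Egr2, Ier2, Btg2 and Klf2 were then lower as well (-0.66 to -0.96). The part of these genes in the members' levels was not tested. Traf3ip2, highest in keratinocytes, was within the fold there (0.41). Nfkbiz was also within it, at 179 and 155 CPM.

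**Figure D2:**
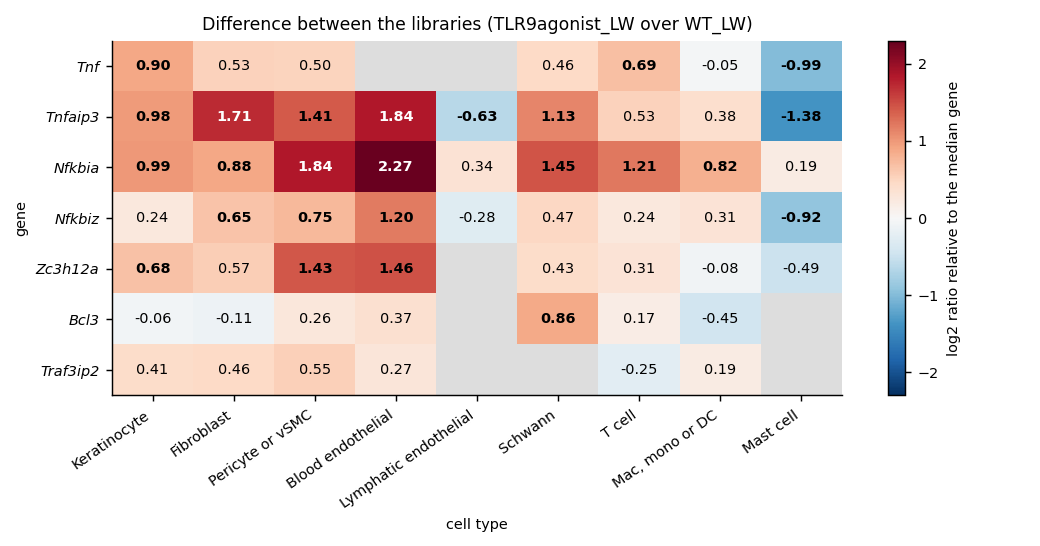
Log2 ratio of TLR9agonist_LW to WT_LW relative to the median gene for each gene (rows) in 9 cell types (columns). Bold values are past 1.5-fold and grey cells had under 50 UMIs. Red fills the Nfkbia and Tnfaip3 rows from keratinocytes to blood endothelium, and blue is strongest in mast cells.

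T cells had 2 of 7 members higher, against 14.7% of 11573 genes (16.0% were lower). Nfkbia was at 1172 CPM in WT_LW (1155 to 1188) and 2266 CPM in TLR9agonist_LW (2244 to 2288), a relative log2 ratio of 1.21 (1.18 to 1.23). Tnf was at 65.6 and 88.4 CPM (0.69, 0.57 to 0.80), a call that was lost with a stricter gate (0.55) and without the centring (0.43). Tnfaip3 was already high and was within the fold, at 929 and 1119.8 CPM (0.53). Of the dissociation list 7 of 23 genes were higher and 6 lower in T cells, and 6 higher and 3 lower in the phagocytes described below. Without the centring Hspa8 (0.35) and Dnaja1 (0.43) of T cells were within the fold, and Jund (-0.60) and Dusp1 (-0.59) were lower.

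The difference in Nfkbia was not shared by all T cells. In γδT17-like cells, gated by Cd163l1, Blk, Sox13, 5830411N06Rik and Il23r (356 and 885 cells), it was at 1695 CPM in WT_LW against 3893 CPM in TLR9agonist_LW (1.35, 1.29 to 1.41). In regulatory T cells (615 and 487) it was at 1208 and 1761 CPM (0.69), and in CD4 helper T cells (537 and 527) at 1070.5 and 1231 CPM (0.34). In CD8 T cells (429 and 188) it was at 880.4 and 616 CPM (-0.43). Nfkbia was thus past the fold, higher, in γδT17 and regulatory T cells, and within it in CD4 helper and CD8 T cells. Its call in regulatory T cells rested on the centring (0.54 without it). Whether the sub-gates differ was not tested. Regulatory T cells had 2 of 7 members higher (10.3% of all genes were higher and 13.4% lower), the second being Tnf at 29.7 and 44.5 CPM (0.73, and just within the fold at 0.58 without the centring), and CD4 helper T cells had none past the fold (10.3% and 15.2%). The sub-gates were mixed in other proportions in the libraries, so the T cell ratio holds both the mix and the level within each.

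γδT17 cells of TLR9agonist_LW had the highest Tnfaip3 level of the T cell sub-gates, 1517 CPM after 1277 CPM in WT_LW (0.40, within the fold). Nfkbiz was at 362 and 497 CPM in them (0.61), just past the fold and within it without the centring (0.45), and Tnf at 134 and 163 CPM (0.43), within it. That made 2 of 7 members higher in γδT17 cells, against 14.2% of 7462 genes (25.6% were lower). CD8 T cells went the other way, with 4 of 6 members lower, against 18.8% of 6106 genes (9.14% were higher). There Tnf was at 81.0 and 23.1 CPM (-1.73) and Nfkbiz at 309 and 104 CPM (-1.49), and Zc3h12a (-0.72) and Bcl3 (-0.74) were lower as well. Bcl3 rested on 77 and 19 UMIs.

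Phagocytes had 1 of 7 members higher, against 11.6% of 10986 genes (7.36% were lower). This was Nfkbia, at 1122 CPM in WT_LW against 1649 CPM in TLR9agonist_LW (0.82, 0.79 to 0.85), which was within 1.5-fold without the centring (0.56). Tnf was at a lower level in TLR9agonist_LW, 185 CPM against 229 CPM in WT_LW, but lay at -0.05 relative to the median gene, with an interval that held 0 (-0.12 to 0.03). Tnfaip3 (330.3 and 359 CPM) and Nfkbiz (319.8 and 329.8 CPM) were within the fold. Bcl3, at 64.5 and 39.4 CPM, was within it too (-0.45), but was called lower without the centring (-0.71) and with a stricter gate (-0.60). Without the centring Bcl3 was thus the only member of this type past the fold, and none was higher.

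Among the phagocyte sub-gates, monocytes (230 and 162 cells) had 3 members past the fold. Nfkbia was at 1048 and 2497 CPM in them (1.51, 1.43 to 1.60), Nfkbiz at 244 and 383 CPM (0.91) and Tnfaip3 at 305 and 432 CPM (0.76). The call of Tnfaip3 was lost without the centring (0.503). So 3 of 6 members were higher in monocytes, against 11.5% of 5385 genes (18.0% were lower). C1q-high macrophages (685 and 611 cells) had none higher and 1 of 6 lower, Bcl3 at 63.6 and 29.5 CPM (-0.98), against 8.32% of 9013 genes lower and 11.5% higher. Nfkbia in these macrophages was at 1252 and 1374 CPM (0.26). In Cd209a dendritic cells (222 and 145) Nfkbia was higher, at 844 and 1387 CPM (0.93), while Tnf was lower, at 71.5 and 21.8 CPM (-1.501, -2.06 to -0.98). Of all genes counted in that gate 12.4% were higher and 18.4% lower, and of the 6 members 1 was higher and 1 lower. Mmp12-high macrophages (83 and 60 cells) had Nfkbia just past the fold, with the centring only (1025 and 1433 CPM, 0.59) and Nfkbiz lower (333 and 188 CPM, -0.73), beside 11.1% of genes higher and 16.9% lower. In Cd209a dendritic cells the gene of the cytokine and that of the inhibitor thus lay on opposite sides of the median gene.

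**Figure D3:**
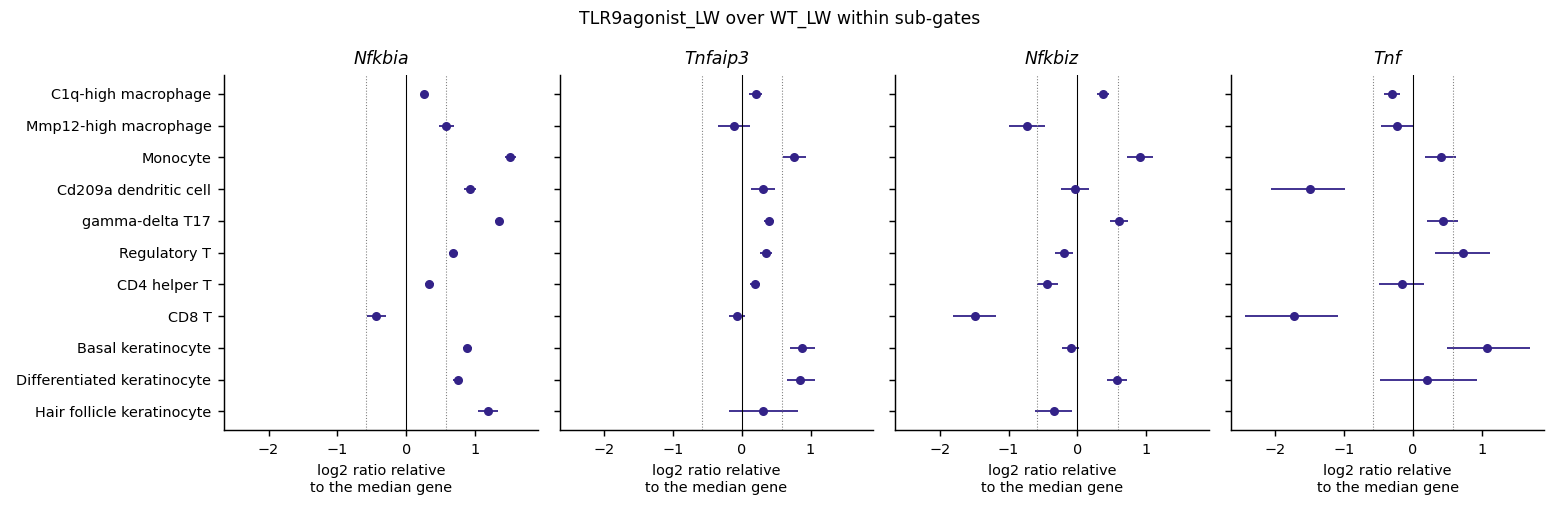
Log2 ratio of TLR9agonist_LW to WT_LW relative to the median gene for Nfkbia, Tnfaip3, Nfkbiz and Tnf in 11 sub-gates, with exact 95% intervals for counting error. Dotted lines mark 1.5-fold either way, and pairs under 50 UMIs have no point. Nfkbia lies past the right line in γδT17 cells, monocytes and all 3 keratinocyte sub-gates, and Nfkbiz and Tnf of CD8 T cells lie past the left one.

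Mast cells were the only type of the 9 with several members lower. Tnfaip3 was at 945 CPM in WT_LW (871 to 1023) and 402 CPM in TLR9agonist_LW (366 to 440.4), a relative log2 ratio of -1.38 (-1.55 to -1.20). Nfkbiz was at 978 and 572 CPM (-0.92, -1.08 to -0.75) and Tnf at 125 and 69.6 CPM (-0.99, -1.46 to -0.52). All 3 were lower in TLR9agonist_LW, 3 of 5 members counted, against 24.5% of 3955 genes lower and 17.1% higher. Nfkbia differed from them, with 971 and 1226 CPM (0.19, within the fold). Other RNA moved with these values. In the mast cell gate 7 of the 8 mast cell markers were lower in TLR9agonist_LW, their sum going from 76433 to 43904 CPM, and the sum of 8 fibroblast markers went from 1350 to 9390 CPM. Of the dissociation and immediate early list 11 of 22 genes were lower, among them Fos, an AP-1 subunit gene, from 2988 to 446 CPM, and 6 were higher. The part of these in the members' levels was not tested. Lymphatic endothelium, with 57 and 52 cells, had 1 of 3 members lower, against 18.8% of 3556 genes (6.61% were higher). This was Tnfaip3, at 234 and 153 CPM (-0.63, -1.05 to -0.22), and the call was lost with equal weight per cell (-0.37).

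Over the 9 types Nfkbia was past the fold in 7, always higher, and within it in lymphatic endothelium and mast cells. Tnfaip3 was higher in 5 and lower in 2, Nfkbiz higher in 3 and lower in 1, and Zc3h12a higher in 3. Tnf was higher in 2 of the 7 types in which it was counted and lower in 1. Bcl3 was higher in 1, and Traf3ip2 was past the fold in none. Of these 25 calls, 16 held under each of the 7 other ways of processing that gave a value. The 4 in blood endothelium, the 3 in mast cells and those of Nfkbia in pericytes, Schwann cells, T cells and fibroblasts, were among the 16.

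The share of cells with a UMI was compared after thinning each cell to 1500 UMIs, which leaves out shallower cells. In blood endothelium 357 of 581 cells of WT_LW held Nfkbia (61.4%, Clopper-Pearson 95% interval 57.4 to 65.4%) and 328 of 361 cells of TLR9agonist_LW (90.9%, 87.4 to 93.6%). In γδT17 cells the shares were 67.8% and 92.95%, and in pericytes 62.4% and 86.9%. Without thinning they were 85.8% and 97.3% in blood endothelium, 85.7% and 99.0% in γδT17 cells and 88.8% and 97.1% in pericytes. Nfkbia was therefore found in most cells of these types in both libraries, with a larger share in TLR9agonist_LW. No type is known to lack Nfkbia, so the lowest share stands as its reference, that of Schwann cells in WT_LW (41.8%) and that of keratinocytes in TLR9agonist_LW (60.4%).

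Tnfaip3 was held by 15.3% of blood endothelial cells in WT_LW and 42.1% in TLR9agonist_LW, and by 16.8% and 33.4% of fibroblasts. In mast cells the shares were 64.3% and 37.5%, the smaller one in TLR9agonist_LW. In keratinocytes they were 13.01% and 13.1%, with overlapping intervals. Unthinned, the shares were 42.9% and 79.2% in blood endothelium, 59.8% and 74.6% in fibroblasts, 76.0% and 45.8% in mast cells and 41.5% and 65.1% in keratinocytes, which differ in depth.

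Tnf was held by 23.8% of phagocytes in WT_LW (21.8 to 26.0%) and 18.3% in TLR9agonist_LW (16.2 to 20.6%), and by 8.95% and 11.9% of T cells. The lowest shares, which serve as the reference, were those of Schwann cells in WT_LW and of blood endothelium in TLR9agonist_LW. Schwann cells held it in 0.534% and 1.07% of cells at the same thinned depth, and blood endothelium in 1.55% and 0.554% (0.0672 to 1.99% in TLR9agonist_LW, where 2 of 361 cells held it). The shares of keratinocytes (0.929% and 1.41%), fibroblasts (1.35% and 1.15%) and pericytes (1.02% and 1.899%) had intervals that overlapped that of the lowest type in their library and are read as background. Without thinning Tnf was found in 52.0% and 38.0% of phagocytes, at median depths of 9163 and 8082 UMIs, and in 3.86% and 2.34% of Schwann cells, at 6935 and 6347 UMIs.

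Cells that held Tnf were compared with those of the same type and library that did not, at 1500 UMIs each. Among phagocytes of WT_LW, 388 cells held Tnf and 1240 did not. Nfkbia was at 1670.2 CPM in the first and 901 CPM in the second, a log2 ratio of 0.89 (0.77 to 1.01). Only 0.917% of the genes compared had a higher ratio. Tnfaip3 was at 535 and 303 CPM (0.82), Nfkbiz at 492 and 267 CPM (0.88) and Zc3h12a at 187 and 118 CPM (0.66). Bcl3 did not stand apart, with a ratio of 0.20 and an interval that held 0. Phagocytes of TLR9agonist_LW (218 with and 972 without Tnf) gave 0.67 for Nfkbia, 0.89 for Tnfaip3, 1.18 for Nfkbiz and 0.84 for Zc3h12a. These genes were thus at a higher level in the Tnf-holding cells of both libraries.

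In T cells the ratios of Tnfaip3 were smaller in both libraries, and that of Nfkbia in WT_LW but not in TLR9agonist_LW. Nfkbia was at 1507 CPM with and 1205 CPM without Tnf in WT_LW (0.32, 0.20 to 0.44), and at 3679 and 2213 CPM in TLR9agonist_LW (0.73, 0.67 to 0.80). Tnfaip3 was at 1124 and 1036 CPM in WT_LW (0.12) and at 1339 and 1178 CPM in TLR9agonist_LW (0.19). Within γδT17 cells of TLR9agonist_LW, Tnfaip3 was at 1479 CPM with and 1559 CPM without Tnf (-0.08) and Nfkbia at 4113 and 3682 CPM (0.16). In those of WT_LW, of which only 58 held Tnf, the ratios were 0.61 and 0.67. Sub-gates were not matched between cells with and without Tnf, and a cell without a Tnf UMI may still express the gene.

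**Figure D4:**
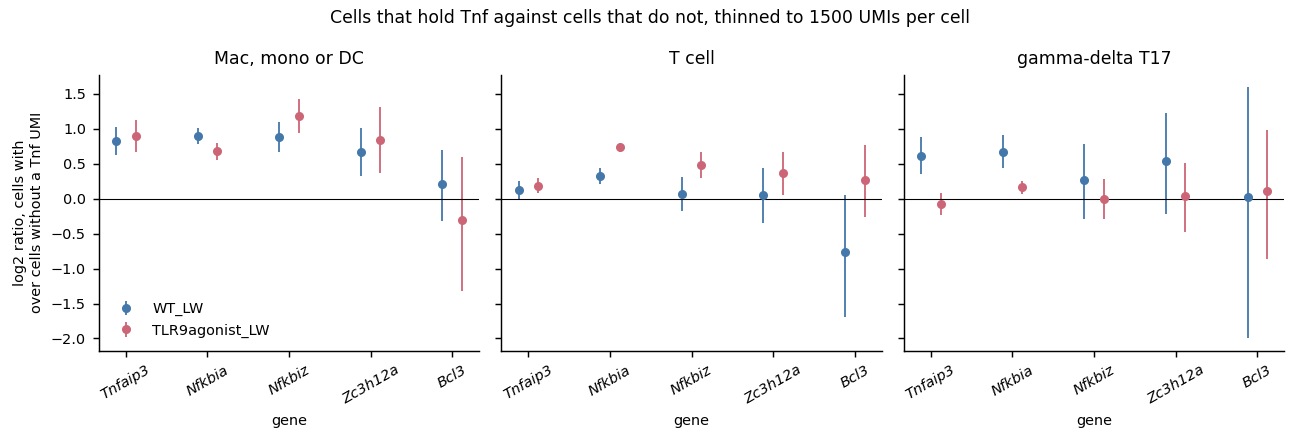
Log2 ratio of the level in cells with a Tnf UMI over cells without one, thinned to 1500 UMIs, for 5 genes in phagocytes, T cells and γδT17 cells of WT_LW (blue) and TLR9agonist_LW (red), with exact 95% intervals. In phagocytes Tnfaip3, Nfkbia, Nfkbiz and Zc3h12a lie above 0 in both libraries.

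The wider pathway was described by lists written from general knowledge, with earlier results of these data known. The chemokines, cytokines and adhesion genes that TNF and IL-17 are known to induce had a median above that of all genes in each of the 9 types, with large differences between types. In pericytes 17 of 17 genes counted were higher (median relative log2 ratio 2.85) and in blood endothelium 14 of 14 (2.86), where the medians of all genes were -0.07 and -0.10. Cxcl1, a chemokine that attracts neutrophils, was at 210.1 CPM in the blood endothelium of WT_LW and 4136 CPM in that of TLR9agonist_LW (4.66). Csf3, the growth factor gene for neutrophils, was at 34.0 and 852 CPM there (5.005), and Cxcl5 at 10.1 and 608 CPM in pericytes (6.27). The types with the largest Nfkbia differences were thus those with the largest medians of this list. In fibroblasts 16 of 17 were higher (1.95), with Il6 at 25.8 and 199 CPM and Saa3, an acute phase gene, at 36.2 and 256 CPM. In keratinocytes 13 of 18 were higher (1.09), with Ccl20, the ligand of CCR6, at 38.2 and 148 CPM. Without centring Cxcl1 (0.27), Cxcl2 (0.49), Sod2 (0.22) and Tnfaip2 (0.36) of keratinocytes were within the fold. Cxcl1 of fibroblasts (0.53) was then within it too.

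T cells had 13 of 17 of these genes higher (1.92), Schwann cells 12 of 13 (1.62) and phagocytes 12 of 16 (1.32). Sod2 of Schwann cells was within the fold without centring (0.41). Cxcl2, a neutrophil chemokine, was at 243 and 2236 CPM in T cells and at 6358 and 12680.2 CPM in phagocytes, which had its highest level in both libraries. The part of RNA from other cells in these levels was not tested. Mast cells had 9 of 12 higher and 1 lower (1.19), although 3 members were lower there. The gene lower was Ccl2, a monocyte chemokine, at 3246 and 1880.3 CPM (-0.93). Lymphatic endothelium had 3 of 9 higher and 2 lower.

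Among the NF-κB subunits and other IκB proteins, 6 of 8 were higher in keratinocytes, 6 of 8 in pericytes, 5 of 8 in blood endothelium, 5 of 8 in T cells, 4 of 8 in fibroblasts and 4 of 7 in mast cells. Without centring on the median gene the number higher fell to 1 in keratinocytes, 2 in blood endothelium and 2 in fibroblasts. Nfkbib, the gene of IκBβ, was at 73.0 and 253 CPM in T cells (2.05) and at 28.3 and 77.4 CPM in blood endothelium (1.81). Nfkb1, which encodes p105 and p50, was at 235 and 497 CPM in pericytes (1.44) and at 307 and 822 CPM in mast cells (1.28). Nfkbid, a nuclear IκB gene, was lower in mast cells (208 and 37.9 CPM, -2.60), pericytes (-1.78), T cells (-0.77) and blood endothelium (-0.63). Schwann cells had 2 of 7 higher, phagocytes 1 of 8 and lymphatic endothelium none of 5.

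Among genes of the TNF receptor and IKK steps, 5 of 20 were higher in pericytes, 3 in T cells and 2 in fibroblasts, with none lower. In Schwann cells 4 of 20 were higher and 1 lower, and in keratinocytes and phagocytes 3 higher and 1 lower each. Without centring Tnfrsf1b (0.583) and Traf2 (0.38) of keratinocytes were within the fold. Tradd, Birc2, Rnf31, Rbck1, Ikbkb, Chuk and Ikbkg of keratinocytes were then lower as well (-0.64 to -0.98). In Schwann cells Ripk1 (0.51) was then within the fold, and Tradd (-0.68) and Traf1 (-0.59) were lower as well. In blood endothelium 4 of 19 were higher and 3 lower, and in mast cells 2 of 9 higher and 2 lower. Lymphatic endothelium had none of 6 higher and 3 lower. Without centring Birc2 of blood endothelium was within the fold (0.47), and Adam17, Tradd, Traf3, Sharpin and Chuk were lower as well (-0.63 to -0.80). Among the types with none lower, Adam17 in pericytes (-0.72), Ikbkb in T cells (-0.80), and Sharpin (-0.66) and Ikbkb (-0.60) in fibroblasts were lower without it. Birc2 of T cells was then within the fold (0.53). Most of the counts with centring lie near the shares of all genes given above for each type. Birc3, a ubiquitin ligase of the TNF receptor complex, was at 36.8 and 107 CPM in fibroblasts (1.81), and Traf1, a signalling adaptor, at 84.4 and 214 CPM in blood endothelium (1.70). Of the other inhibitors of NF-κB or of cytokine mRNA, 6 of 17 were higher and 2 lower in blood endothelium. Among them Tnip1, the gene of an A20-binding protein, was at 63.5 and 258 CPM (2.38). Without centring Rnf11 (0.33), N4bp1 (0.36) and Zfp36l1 (0.55) of blood endothelium were within the fold, and Otud7b (-0.66) and Rc3h2 (-0.92) were lower as well. Tnip1 was at 51.1 and 157 CPM in pericytes (1.98), where 3 of 17 were higher and none lower. Otud7b was lower without centring in pericytes and in fibroblasts (-0.71 in each). In keratinocytes 3 of 18 were higher and 3 lower, the latter Tnip3 (-0.75), Cyld (-0.81) and Zfp36l2 (-0.79). Without centring Tnip1 (0.51) and Irak3 (0.53) were within the fold there, and Otud7b, Itch, Tank and Rc3h2 were lower as well (-0.65 to -0.85). In T cells 4 of 19 were higher and 2 lower, in lymphatic endothelium 1 of 10 each way, and with none lower 2 of 18 were higher in fibroblasts, 2 of 16 in Schwann cells and 1 of 19 in phagocytes. Without centring Tnip3 (0.56) and Zfp36l1 (0.51) of T cells were within the fold, and Zfp36l2 was lower as well (-0.74). Tnip1 of fibroblasts was then also within the fold (0.56). In mast cells 6 of 13 were higher and 2 lower. Zc3h12c, a relative of Zc3h12a, was higher there (1.45), as was Tnip1, at 21.9 and 48.5 CPM, and Zfp36, whose product degrades Tnf mRNA, was lower, at 1228 and 594 CPM (-1.19). Zfp36 was lower in T cells too (-0.77), but it was higher in fibroblasts, at 396 and 783 CPM (1.26), and in blood endothelium (1.04), lymphatic endothelium (0.84) and Schwann cells (0.83). Of the IL-17 receptor and adaptor genes, 5 of 10 were higher and 1 lower in Schwann cells, where 8.78% of all genes were higher. In fibroblasts 4 of 11 were higher and none lower (14.2%), and in pericytes 3 of 11 higher and none lower (13.4%). Without centring Il17ra (0.32), Il17rc (0.43) and Arid5a (0.35) of fibroblasts were within the fold, which left Cebpb, and Il17rd was lower (-0.67). Il17rd and Traf4 of Schwann cells (0.45 each) were then within the fold too, as was Il17ra of blood endothelium (0.31) and of keratinocytes (0.20). In blood endothelium and in phagocytes 3 of 10 were higher and 1 lower. The counts of the remaining types went both ways or were smaller, with 2 of 12 higher and 2 lower in T cells, 1 of 12 higher and 2 lower in keratinocytes, 1 of 5 higher and 1 lower in mast cells, and Cebpb alone in lymphatic endothelium. Without centring Il17re (-0.70) and Arid5a (-0.76) of T cells and Traf5 of keratinocytes (-1.02) were lower as well. Cebpb, a transcription factor that IL-17 induces, was higher in 7 of the 9 types, all but keratinocytes and mast cells. In mast cells it lay just within the fold, at 520 and 860 CPM (0.58), and was past it without centring (0.73). It was at 57.8 and 182 CPM in blood endothelium (2.01), 791 and 2347 CPM in pericytes (1.93) and 223 and 556 CPM in fibroblasts (1.59). Il17ra, the shared receptor chain, was at 43.9 and 86.3 CPM in pericytes (1.33).

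**Figure D5:**
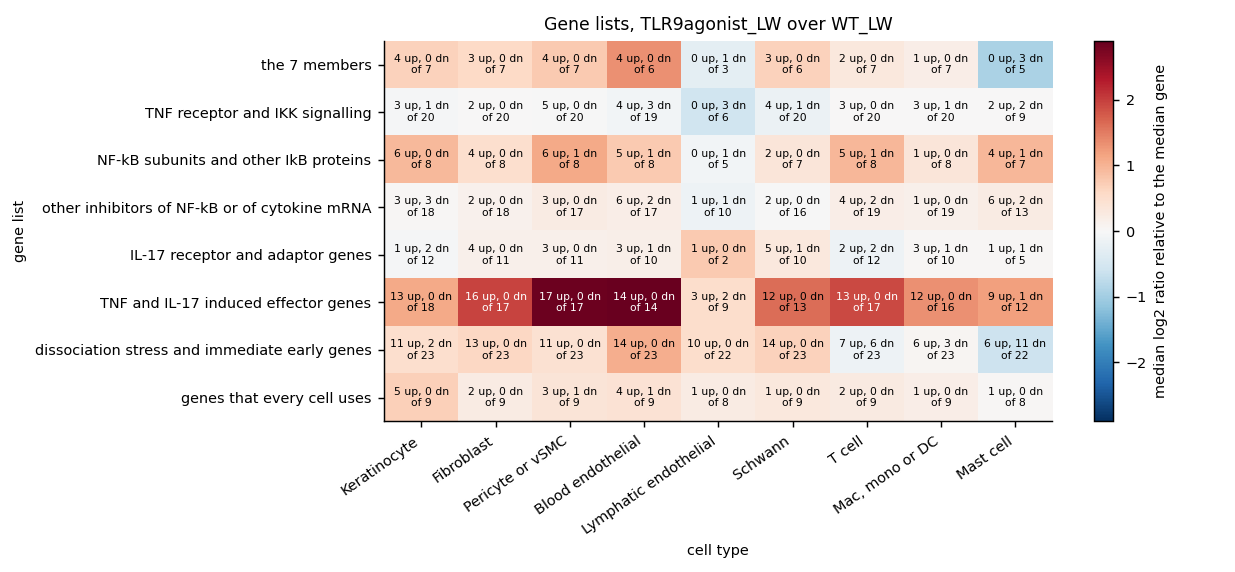
Median log2 ratio of TLR9agonist_LW to WT_LW relative to the median gene for 8 gene lists (rows) in 9 cell types (columns), with the number of genes past 1.5-fold up and down (dn) of those with at least 50 UMIs. The row of effector genes is darkest in pericytes and blood endothelium.

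Genes with a like pattern were named by Pearson's r over 18 points (9 types in 2 libraries) on log2(CPM + 1), among 11991 genes. These points share libraries and RNA of other cells, and r is given as a description. The heat shock genes Hspa8 (0.90) and Hspa1b (0.83) were among those most like Nfkbia, and Tnfaip3 was most like Batf (0.89), Junb (0.87) and Smad7 (0.85). Tnf was most like Cd48 (0.95), Tnfrsf13b (0.95) and Rgs1 (0.94), genes of immune cells. Nfkbiz was most like Kit (0.84), Aff1 (0.83) and Smad7 (0.81), Zc3h12a most like Mapkapk3, Pfkp and Gapdh (0.86 each), Bcl3 most like Trmt44 (0.86), Casp4 (0.81) and 1600020E01Rik (0.81), and Traf3ip2 most like Ppp2r1b (0.85), Asns (0.83) and Slco3a1 (0.79). No member was among the 3 genes most like another.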

How the data were processed

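Single-cell RNA data (10x) were used, 1 library per group. Per the deposited files and the submitters' processing notes, the authors made whole-number UMI counts per gene and cell with Cell Ranger 4.0.0, with fastp, Seurat and the build mm9 also named. The promoter windows are from RefSeq on GRCm38.p6 and were joined to genes by symbol only. Cells with at least 500 UMIs, 300 genes and at most 15% mitochondrial UMIs were kept. Doublets were scored with scrublet in scanpy 1.11.5. Its automatic threshold marked 0 cells, so the highest scores were removed at 0.8% per 1000 cells (1048 and 1395 cells).

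A cell entered a type when at least 3 of its markers stood above 2 times the library average (sub-gates, at least 2 markers above 1 times the average of the cells of that type), and 1196 and 1302 cells passed no gate and 445 and 266 several. UMIs were summed per type and library. Intervals are exact (Poisson, conditional binomial or Clopper-Pearson, 95%). The median gene was taken over genes with at least 200 UMIs. Ratios were tested on simulated counts, and no outcome of that is reported here. No p-value was computed, since each group was 1 library. Further tools were leidenalg 0.10.2, matplotlib 3.10.9, anndata 0.12.19, pandas 2.3.3, scipy 1.17.1 and numpy 2.4.6 under Python 3.11.15.

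The members and lists were chosen with earlier results of these data known. Named genes were all members and, of each list and type, examples among the 3 highest and 3 lowest ratios, and for likeness the 3 highest r among genes with at least 500 UMIs. Genes named outside that rule were chosen after their values were seen. Alternatives were clusters (Leiden, resolution 1) in place of gates, a stricter gate, doublets kept, a stricter cell filter (1500 UMIs, 800 genes, 8% mitochondrial), equal weight per cell, no centring, 3000 UMIs or no thinning, a minimum of 10 UMIs and a fold of 2. Leaving out shared barcodes was added after seeing the data. Some genes are not reported here.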

Additional observations from a re-analysis of the deposited data

Results flagged for a closer look

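For 3 genes the types moved in opposite directions past the fold, and whether the types differ was not tested because each group was 1 library. Tnfaip3, the A20 gene, had a relative log2 ratio of 1.84 in blood endothelium and -1.38 in mast cells. Nfkbiz, the gene of IκBζ, had 1.2 in blood endothelium and -0.916 in mast cells. Tnf had 0.896 in keratinocytes, where its share of cells was at background, and -0.99 in mast cells. The call in keratinocytes was lost without centring (0.46), with doublets kept (0.38) and with equal weight per cell (0.15). T cells, the other type with Tnf higher, also lost that call without centring (0.43). The opposite directions of Tnf past the fold therefore rested on the centring. In the mast cell gate 7 of the 8 mast cell markers were lower and the summed fibroblast markers higher in TLR9agonist_LW. The part of this in the 3 mast cell ratios was not tested.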

How the results depend on the processing

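No paired analysis was possible because each group was 1 library. Of 25 member calls in 9 types, 16 held under all 7 alternatives and 9 were lost under at least 1, 8 of them without centring on the median gene. Of 30 values within the fold, 11 passed it under at least 1. The number of members past the fold moved in 4 types. In keratinocytes it went from 4 to 0 without centring, and in fibroblasts from 3 to 5 with clusters. In T cells it went from 2 to 1 with a stricter gate and to 1 without centring. In phagocytes it went from 1 to 2 with a stricter gate and to 2 with equal weight per cell. It stayed at 1 there without centring, but that member was then Bcl3, lower (-0.71), in place of Nfkbia. Tnf in Schwann cells, within the fold at 0.46, turned to -0.90 with equal weight per cell. At 3000 UMIs the ratio of cells with over without Tnf reversed for Tnfaip3 (-0.0593 from 0.98) and Zc3h12a (-0.14 from 1.26) in monocytes of WT_LW. It also reversed for Traf3ip2 (-1.02 from 3.92) in γδT17 cells of WT_LW. A further 10 ratios of this kind moved without reversing, and 91 stayed the same. The type with the highest level, taken for 7 genes in 2 libraries, changed, or its level left the interval, in 9 of 14 cases with equal weight per cell, 6 with clusters, 6 with a stricter gate, 4 with doublets kept and 3 with a stricter cell filter. In WT_LW T cells then led mast cells for Tnfaip3 under the last 4 of these. Of 196 levels, 52 moved with a stricter gate. The highest share of cells with a UMI moved in 14 of 14 cases at 3000 UMIs and in 13 of 14 without thinning. Of 63 counts of list genes (7 lists in 9 types), 43 moved by over 1.5 times with a fold of 2, 19 without centring and 5 with a minimum of 10 UMIs. The causes were not tested. Leaving out the shared barcodes changed none of the 55 ratios' calls. Rare transcripts (Traf3ip2, Tnf outside immune cells, Bcl3 in small gates) are limited by depth, and the lymphatic endothelial and small sub-gates by their cell number. With 1 library per group, the spread between animals is unknown.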
